A study of Acacia koa with 4 samples.

Results

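The LysM type receptor kinase transcript A20036 was 1 of 4000 transcripts on a NimbleGen array used to study seedlings of koa (Acacia koa), a Hawaiian tree of the legume family. It was chosen by its identifier, because its level differed between the 2 groups in these same arrays, so its own difference is given below as a description and is not tested. The array carried 13 further transcripts whose description contains the word LysM, and these were chosen by description alone. The stressed group consisted of whole seedlings whose stems had been bent by hand towards the cardinal directions without wounding, and the unstressed group of seedlings that were not bent. There were 2 biological replicates per group, and for each of them about 20 seedlings were pooled and hybridised to an array of its own. The labels name no genotype, age or time between bending and freezing.

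LysM receptor kinases are plant proteins that reach through the plasma membrane, with a kinase inside the cell and LysM domains outside that bind sugars built from N-acetylglucosamine. In Arabidopsis and rice, members of the class perceive chitin, a component of fungal walls. They pass the signal to MAP kinases, a burst of reactive oxygen and WRKY transcription factors. In the legumes Lotus and Medicago, other members perceive the Nod factors of rhizobia and open the way to root nodules. The files describe A20036 only by a similar protein of this class, so which of these roles it may have in koa is not known from them.

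The values are intensities on a linear scale that the authors made with RMA, which combines the probes of a transcript into 1 value per array. Median intensities of the arrays were 991 and 1018 in the stressed pools, against 981 and 1010 in the unstressed pools. Across transcripts, Pearson's r of log2 intensities was 0.992 for the stressed pools, 0.983 for the unstressed pools and 0.974 to 0.985 for pools of different groups. Genes are not independent replicates, so these coefficients describe only how alike the arrays are. Whole seedlings were powdered, so a lower or higher number of cells of a type and less or more RNA per cell cannot be told apart. Of the 3 transcripts caught by the search for photosynthesis genes, chlorophyll a/b binding protein (A61) was near the top of the array's scale. It was at 61684 and 63243 in the stressed pools and at 61888 and 63137 in the unstressed pools. Photosystem II PsbR (A73) was at 29452 and 29096 in stressed and at 30572 and 29585 in unstressed pools (log2 difference −0.04). Ribulose-phosphate 3-epimerase (A526993) was near the bottom of the scale, at 49 and 53 in stressed and 50 and 48 in unstressed pools (0.05).

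A20036 had an intensity of 2833 and 3558 in stressed pools 1 and 2, against 541 and 645 in unstressed pools 1 and 2. Both stressed pools lay above both unstressed pools, and the lower stressed pool was 4.39 times the higher unstressed one. On the log2 scale the level averaged 11.63 ± 0.23 in stressed and 9.21 ± 0.18 in unstressed pools (SD, n = 2 each), a difference of 2.43 and a 5.38-fold ratio of the geometric means. In order of level, stressed pool 2 came first, then stressed pool 1, unstressed pool 2 and unstressed pool 1. Between pools of the same number the log2 difference was 2.39 for number 1 and 2.46 for number 2. It lay between 2.26 and 2.59 whichever single pool was left out. Across the array, 11 transcripts had a larger positive log2 difference.

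The pools of 1 group also differed from each other in A20036. Stressed pool 2 was above stressed pool 1 by 0.33 on the log2 scale, and unstressed pool 2 above unstressed pool 1 by 0.25. Among the 200 transcripts nearest to A20036 in mean log2 level, the median size of this difference was 0.16 in stressed pools and 0.21 in unstressed pools. The stressed pool difference of A20036 was larger than that of 81% of these transcripts, and its unstressed pool difference larger than that of 54.5%. Both were small beside the difference of 2.43 between the groups.

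The other 13 LysM transcripts showed no change that passed the test. Limma called none of them (adjusted p under 0.05 after Benjamini-Hochberg adjustment over all 4000 transcripts), and none had an unadjusted p under 0.05. Over the whole array 38 transcripts were called, 0.95% of those tested, and an unadjusted p under 0.05 was reached by 5.5%. Log2 differences of the 13 ran from −0.24 to 0.11, with a median of −0.05 and with 3 positive and 10 negative, beside a median of −0.04 with 1570 positive and 2430 negative over all transcripts. The smallest adjusted p among the 13 was 0.986. Their 95% confidence intervals from limma, unadjusted for the number of transcripts, reached at most from −0.76 to 0.75, so that a difference above 1.68-fold in the direction of stressed pools, or above 1.70-fold in that of unstressed pools, lay outside the interval of each.

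**Figure D1:**
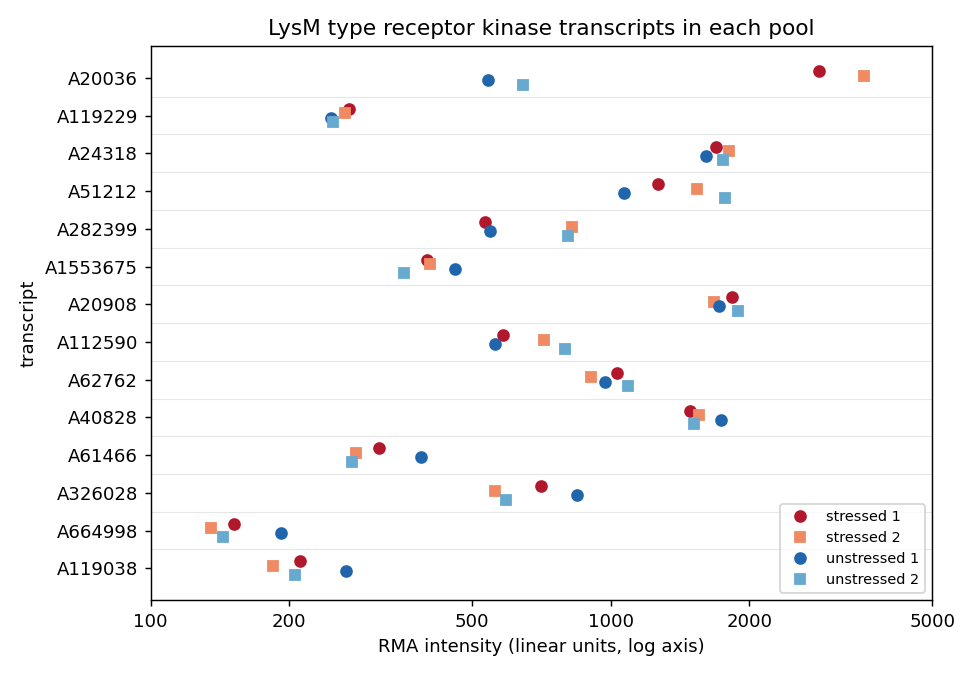
RMA intensity (log axis) of the 14 LysM type receptor kinase transcripts in each of the 4 pools, 1 row per transcript and 1 point per pool, ordered by log2 difference. A20036 sits at 2833 and 3558 in stressed pools and at 541 and 645 in unstressed pools, while the pools of the 2 groups overlap in 12 of the other 13 transcripts.

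In 12 of these 13 transcripts the stressed and unstressed pools overlapped. A119229 was the exception, with 270 and 265 in stressed pools and 246 and 249 in unstressed pools, a log2 difference of 0.11 (95% confidence interval −0.19 to 0.41, limma adjusted p = 0.986). Groups that do not overlap were common on the array, at 31.5% of all transcripts. The largest negative difference was that of A119038, with 212 and 184 in stressed pools and 265 and 206 in unstressed pools, a log2 difference of −0.24 (−0.70 to 0.21). A664998 had 152 and 135 in stressed pools and 192 and 144 in unstressed pools (log2 difference −0.21, −0.69 to 0.26). In both, unstressed pool 1 stood above the other three pools.

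The 14 LysM transcripts were matched by the authors to 8 distinct proteins, and each value rested on 18 probes. A20036 was the only transcript on the array matched to its protein. Of the others, 4 transcripts (A20908, A24318, A40828 and A62762) shared a matched protein, as did the pairs A282399 and A51212, A119038 and A61466, and A119229 and A1553675. Transcripts that share a match may be close relatives, or pieces of 1 gene, that bind each other's probes, so they are not separate measurements. The 4 sharing a protein had log2 differences of −0.09 to 0.06. Their intensities were 1830 and 1677 in stressed and 1715 and 1886 in unstressed pools for A20908, and 1689 and 1810 in stressed and 1614 and 1750 in unstressed pools for A24318. A40828 was at 1488 and 1555 in stressed and at 1737 and 1516 in unstressed pools. A62762 was at 1029 and 904 in stressed and at 971 and 1088 in unstressed pools. None of the 4 followed the order of pools seen in A20036.

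Several LysM transcripts varied more with the replicate number than with bending. A282399 had 531.8 and 823 in stressed pools 1 and 2, and 546 and 808 in unstressed pools 1 and 2. Its log2 difference between the groups was −0.01 (95% confidence interval −0.76 to 0.75), while pool 2 exceeded pool 1 by 0.63 in the stressed and 0.57 in the unstressed group. A51212, matched to the same protein, was at 1267 and 1536 in stressed pools and at 1070 and 1767 in unstressed pools. A112590 was at 583 and 716 in stressed pools and at 560 and 796 in unstressed pools. In all 3, pool 2 was the higher one in each group.

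The opposite order was found in A326028, at 707 and 560 in stressed pools and at 845 and 591 in unstressed pools. A61466 likewise had 313 and 279 in stressed pools and 388 and 274 in unstressed pools. In all, 8 of the 13 differed between pools 2 and 1 with the same sign in both groups, 4 upwards and 4 downwards, as did 65.5% of all transcripts. In 12 of the 13, all but A119229, the size of this difference averaged over both groups exceeded that between stressed and unstressed pools, which was so for 68.5% of all transcripts. The remaining member, A1553675, was at 398 and 404 in stressed pools and at 458 and 356 in unstressed pools. The labels do not say whether a number marks a shared batch, and its part in these values was not tested.

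**Figure D2:**
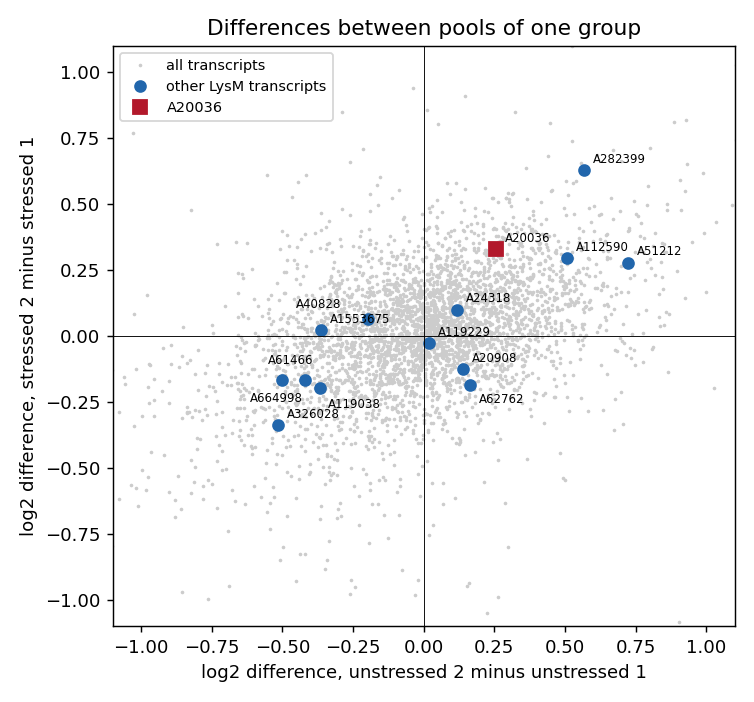
Log2 difference between pools 2 and 1 of the stressed group (y axis) and of the unstressed group (x axis) for A20036, the other 13 LysM transcripts and all transcripts, of which 60 lie beyond the axes. A20036 stands at 0.33 and 0.25, A282399 at 0.63 and 0.57, and 8 of the other 13 fall in a quadrant where both differences have the same sign.

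A further 2 transcripts, A279422 and A659835, are described as a protein kinase with peptidoglycan binding, a wording that lacks the word LysM. They were looked up after the descriptions had been read. A279422 was at 236 and 206 in stressed pools and at 250 and 196 in unstressed pools, and A659835 at 299 and 236 in stressed pools and at 361 and 250 in unstressed pools. The groups overlapped in both, with log2 differences of 0.00 and −0.18.

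Receptor-like kinases other than A20036 did not pass the test in these pools. The array carried 176 of them, the 13 LysM transcripts included, and limma called none, beside 0.95% of the array. At an unadjusted p under 0.05 there were 4 higher and 2 lower, 3.41% of them in all, beside the 5.5% of the whole array given above. The groups did not overlap in 31.8% of them, beside 31.5% of the array. Their median log2 difference was −0.06, with 65 positive and 111 negative and a range of −0.48 to 0.73. By the smallest p, the first was the wall-associated kinase A147420, of a class that binds pectin in the wall, at 2109 and 2246 in stressed pools and 1462 and 1207 in unstressed pools. Both of its stressed pools lay above both unstressed pools, at 1.64-fold (log2 difference 0.71, 95% confidence interval 0.33 to 1.09, limma adjusted p = 0.244). The putative receptor protein kinases A126119 and A109308 had log2 differences of 0.49 and −0.48 (limma adjusted p = 0.460 and 0.477).

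FERONIA, a receptor-like kinase that in Arabidopsis senses the state of the wall and takes part in responses to touch, was represented by 5 transcripts, each with a positive log2 difference, at 0.02 to 0.73. The upper end of that range, A236858, was at 1347 and 1093 in stressed pools and at 877 and 607 in unstressed pools, without passing the test (limma adjusted p = 0.616). The groups overlapped in A39100 and A70488 of the 5, and a response shared by these transcripts was not tested. Wall-associated kinases (22 transcripts) had a median log2 difference of 0.01 and a range of −0.28 to 0.71. The 20 transcripts described as CLAVATA1, a receptor that limits stem cell number in meristems, had a median of −0.14 and 17 negative members. Lectin receptor kinases (12 transcripts) had a median of −0.09, stress-induced receptor-like kinases (10 transcripts) of −0.19 and brassinosteroid receptor kinases (5 transcripts) of 0.02. Somatic embryogenesis receptor kinases, a family that includes partners of many other receptors, had 2 transcripts at −0.18 and −0.02. These families were named after the descriptions had been read.

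Nodulation receptor kinases act, in other legumes, together with the LysM receptors in the response to Nod factors. The 7 transcripts with this description had log2 differences of −0.11 to 0.10, with 3 positive and 4 negative, and the smallest unadjusted p was 0.416. One of them, A66826, taken as an example after the values were seen, was at 904 and 1095 in stressed pools and at 816 and 1058 in unstressed pools. Its groups overlapped, and pool 2 was again above pool 1 in each.

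**Figure D3:**
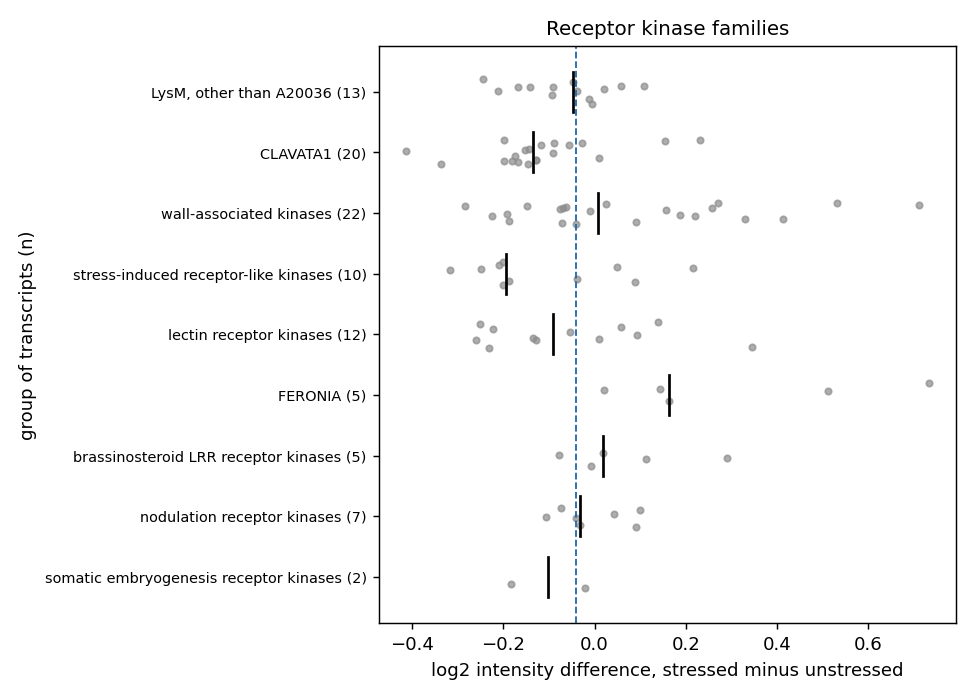
Log2 intensity differences, stressed minus unstressed, of receptor kinase families, 1 point per transcript, with a black bar at each family's median and a dashed line at the median of all transcripts (−0.04). All points lie between −0.41 and 0.73, while A20036, which is not drawn, was at 2.43.

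Families with members known in other plants to act with or after LysM receptors in chitin signalling were looked at, with chitinases and symbiosis genes. The 6 lists of search words were chosen with earlier results of these data known, and took in every transcript whose description matched. Together they held 151 transcripts, whether or not these act with a LysM receptor. Limma called 9 of these higher and none lower, beside 0.925% of the array called higher and 0.025% called lower. All 9 were MAP kinases or WRKY factors, and a link between them and A20036 was not tested. With 1 pool left out the count fell to 5 (unstressed replicate 1 omitted), 6 (unstressed replicate 2 omitted), 3 (stressed replicate 1 omitted) or 2 (stressed replicate 2 omitted).

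Of 28 MAP kinases and upstream kinases, limma called 2 higher (7.14%) and none lower. The list's median log2 difference was −0.01, with 13 positive and 15 negative. MAP kinase A15040 was at 10368 and 11374 in stressed pools and at 2327 and 2792 in unstressed pools, 4.26-fold higher (log2 difference 2.09, 95% confidence interval 1.71 to 2.47, limma adjusted p = 0.0087). Mitogen-activated protein kinase 2 (A23526) was at 7449 and 10318 in stressed pools and at 1933 and 2261 in unstressed pools, 4.19-fold higher (limma adjusted p = 0.0237). In each, both stressed pools were far above both unstressed pools. A15040 was no longer called without stressed replicate 1 (limma adjusted p = 0.087) or stressed replicate 2 (0.114), and A23526 lost its call whichever pool was omitted (0.062 to 0.121) and with 100 added before log2 (0.066). The kinase kinase A101795, of the tier that switches MAP kinases on, was at 619 and 660 in stressed pools and at 390 and 416 in unstressed pools (1.59-fold, limma adjusted p = 0.173).

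Of 30 WRKY transcripts, limma called 7 higher (23.3%) and none lower. The median log2 difference over the list was 0.11, with 17 positive and 13 negative. At an unadjusted p under 0.05, 10 were higher and 2 lower, 40% of the list beside 5.5% of the array. The groups did not overlap in 12 members that were higher and 6 that were lower, 60% of the list beside 31.5% of the array. WRKY27 (A357137) was at 1268 and 1353 in stressed pools and at 160 and 155 in unstressed pools, 8.30-fold higher (limma adjusted p = 0.0035). A406475 was at 1712 and 2548 in stressed pools and at 263 and 234 in unstressed pools, 8.42-fold higher (limma adjusted p = 0.0087). WRKY108715 (A54103) was at 2413 and 2980 in stressed pools and at 463 and 507 in unstressed pools, 5.54-fold higher (limma adjusted p = 0.0063). The others called were WRKY20 (A387921), a second WRKY27 (A10271), WRKY23 (A12297) and WRKY39 (A23796), at log2 differences of 1.17 to 2.65. Omitting unstressed replicate 1 left 4 of the 7 called, and omitting unstressed replicate 2 also left 4, with A217421 called in addition. Omitting stressed replicate 1 left 3 of the 7, omitting stressed replicate 2 left 2, and adding 100 before log2 left 4. A357137 and A406475 were called in each of these 5 fits, and A54103 in all but the one without stressed replicate 2 (limma adjusted p = 0.077).

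Among 30 respiratory burst oxidases, which make reactive oxygen at the cell surface, and calcium-dependent protein kinases, limma called none, beside 0.95% of the array. An unadjusted p under 0.05 was reached by 1 of them, 3.33% of the list beside 5.5% of the array. That was respiratory burst oxidase 2 (A13589), at 4293 and 5322 in stressed pools and at 3302 and 3122 in unstressed pools (1.49-fold, limma adjusted p = 0.468). The calcium-dependent kinases named by the rule, A286663 and A59588, had log2 differences of −0.36 and −0.30. The list also caught a carbohydrate kinase through its letters. Receptor-like cytoplasmic kinases, which carry signals from receptors inwards, were covered by 6 transcripts. Limma called none of these, beside 0.95% of the array, and none had an unadjusted p under 0.05, beside 5.5%. With 6 transcripts these counts cannot be told apart from the array's shares. All 6 were negative, at log2 differences of −0.28 to −0.11, as were 2430 of the 4000 transcripts on the array. The groups did not overlap in 4 of them, all lower, 66.7% of the list beside 31.5% of the array. The Pti1-like kinase A83169 was at −0.28, and the APK1 kinases A51602 and A11057 were at −0.13 and −0.11.

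**Figure D4:**
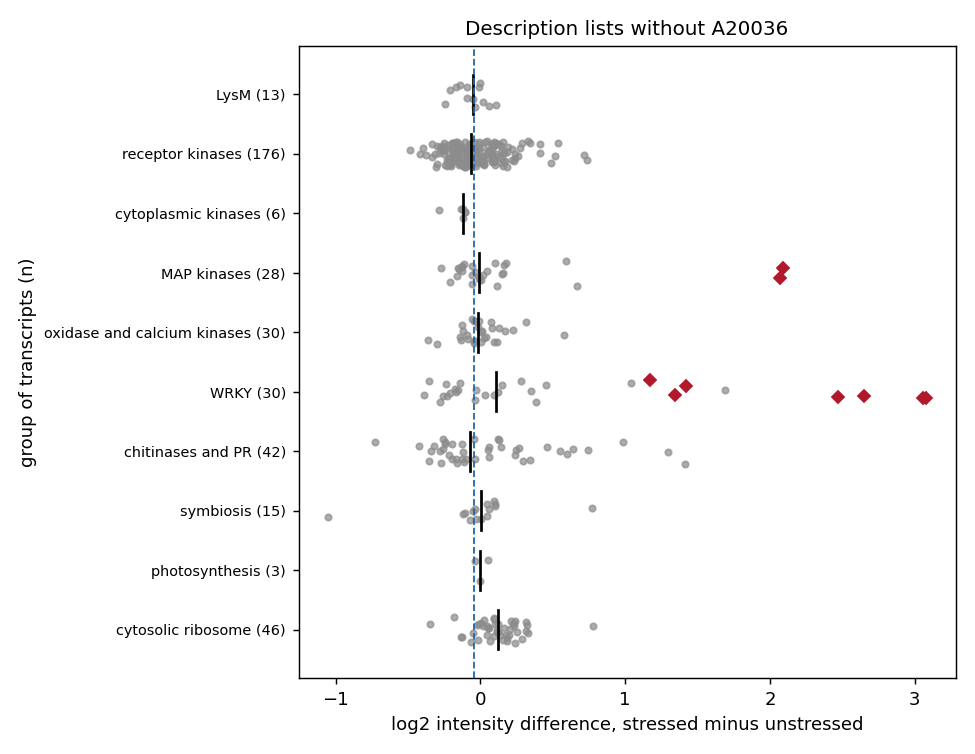
Log2 intensity differences, stressed minus unstressed, for each list without A20036, 1 point per transcript. Red diamonds are transcripts called by limma, black bars are list medians and the dashed line is the median of all transcripts; the called points are 2 MAP kinases at 2.07 and 2.09 and 7 WRKY transcripts at 1.17 to 3.07.

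Chitinases release the chitin fragments that LysM receptors of other plants bind, and glucanases break another component of fungal walls. Limma called none of the 42 transcripts of this list, beside 0.95% of the array. At an unadjusted p under 0.05, 4 were higher and 2 lower, 14.3% of the list beside 5.5% of the array. The median log2 difference was −0.07. The pools of the groups did not overlap in 11 members that were higher and 13 that were lower, together 57.1% of the list beside 31.5% of the array. Chitinase A226 was at 18870 and 13648 in stressed pools and at 7142 and 9197 in unstressed pools (1.98-fold, limma adjusted p = 0.305), and chitinase A907, matched to the same protein, at 843 and 755 in stressed pools and at 505 and 548 in unstressed pools (1.52-fold, limma adjusted p = 0.276). Beta-1,3-glucanase A934 was at 7157 and 3870 in stressed pools and at 2033 and 1925 in unstressed pools (2.66-fold, limma adjusted p = 0.275). In these 3, which were named for their small p, stressed pool 1 was the higher of the stressed pools, the reverse of A20036.

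Limma also called none of the 15 transcripts of the symbiosis list, beside 0.95% of the array. At an unadjusted p under 0.05, 1 was higher and 1 lower, 13.3% of the list beside 5.5% of the array. These were non-symbiotic hemoglobin (A419), at 5124 and 4840 in stressed pools and 2265 and 3763 in unstressed pools (limma adjusted p = 0.723), and a nodulin (A268015), at 513 and 517 in stressed pools and 1261 and 901 in unstressed pools (limma adjusted p = 0.173). The list had a median of 0.00 and held no leghaemoglobin, the oxygen carrier that marks nodules, so the presence of nodules could not be read from it. The third member named by the rule, an adrenodoxin oxidoreductase (A109129, log2 difference −0.12), was caught through its letters and has no known part in symbiosis. The 46 ribosomal transcripts, a gauge of the general state of the RNA, had a median log2 difference of 0.12, with 37 positive and 9 negative. None of them was called by limma, beside 0.95% of the array. An unadjusted p under 0.05 was reached by 2, 4.35% of the list beside 5.5% of the array. The part of the general RNA state in the results above was not tested.

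The transcripts most like A20036 in pattern were found by the root mean square difference between log2 levels, each centred on its own mean over the 4 pools. With 4 pools, of which 2 are high, the measure mostly finds transcripts with a similar difference between the groups, and it is a description without a test. The nearest was WRKY108715 (A54103), at 0.05, with the same order of the 4 pools as A20036. All the near transcripts named here and below, except A31187 and A21136, had that order. Next came a protein phosphatase 2C (A42479), some relatives of which hold back the abscisic acid pathway in other plants, at 0.12, with 5439 and 6382 in stressed pools and 1210 and 1250 in unstressed pools. Abscisic acid 8'-hydroxylase (A48201), which begins the breakdown of that hormone, was at 0.14, with 2206 and 2466 in stressed pools and 487 and 524 in unstressed pools.

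The MAP kinases A15040 and A23526 followed at 0.18 and 0.19. Their log2 differences of 2.09 and 2.07 lay near the 2.43 of A20036, which is what the measure mostly finds. The RING-type zinc finger A31187 and the ethylene-responsive element-binding protein A21136 were each at 0.19. In these last 2, unstressed pool 2 was below unstressed pool 1, unlike in A20036. The NBS-LRR protein A620627, of a class of immune receptors inside the cell, was at 0.23, with 765 and 1083 in stressed pools and 133 and 241 in unstressed pools. It was not called (limma adjusted p = 0.087). The log2 differences of the 8 ranged from 2.07 to 2.62.

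**Figure D5:**
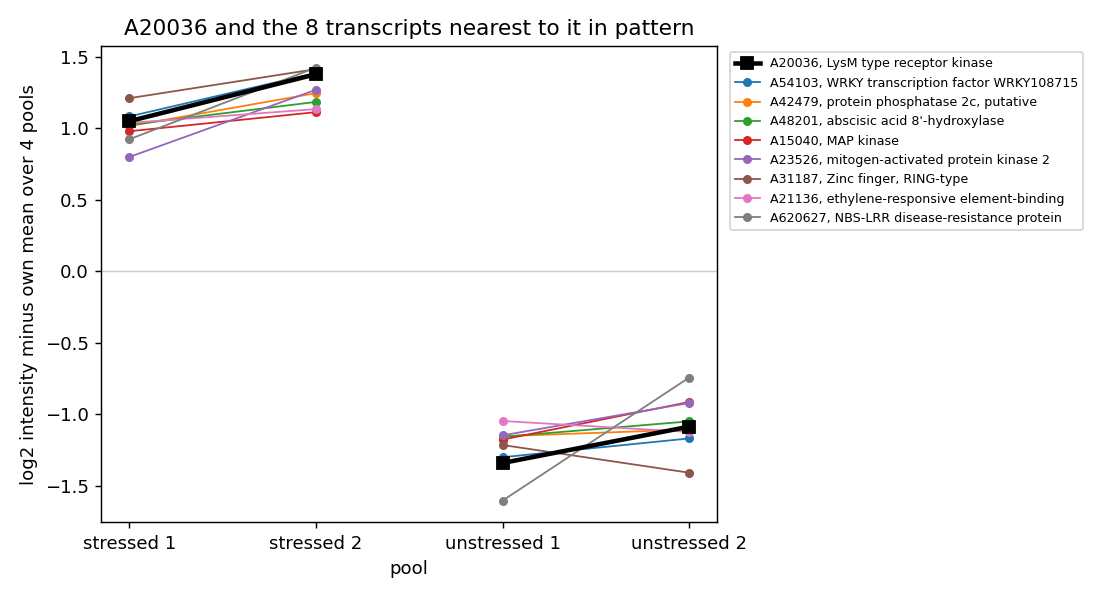
Log2 intensity of A20036 (black squares) and of the 8 transcripts nearest to it, each minus its own mean over the 4 pools, by pool, with lines joining pools of 1 group. All 9 transcripts are above 0 in both stressed pools and below 0 in both unstressed pools, and the nearest, A54103, differs from A20036 by 0.05 (root mean square).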

How the data were processed

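Total RNA of 4 pools of koa seedlings was converted to cDNA, labelled with Cy3 and hybridised to 1-colour NimbleGen arrays (source: the labels' protocols). The authors deposited linear intensities, computed by RMA per the submitters' processing notes. The sources used here name no RMA version or settings. RMA evens out the arrays, so a change common to most transcripts would have been removed, and it can compress the differences of very dim transcripts. The highest intensities of the 4 arrays were 64415 to 64925, and differences of transcripts near that top may be compressed too. Intensities in the deposited series table were identical to those of the single arrays (largest difference 0). No detection call was used, and the number of arrays limits the precision.

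Intensities were taken to log2 with nothing added and no filter, and compared with limma 3.58.1 (lmFit, eBayes) under R 4.3.3, two-sided, with group as the only term (2 residual and 2.93 prior degrees of freedom), adjusting over all 4000 transcripts at 0.05. The fit was tested on simulated data. No permutation test was used, since 2 pools against 2 cannot reach the threshold. Lists were search words applied to the descriptions, strays kept. Named transcripts were all with LysM, the 8 nearest to A20036, and up to 3 per list with the smallest p. A20036, the lists and the tests were chosen with earlier results of these data known. Alternatives were leaving out each pool, the replicate number as a block, leaving out the dimmest 25%, adding 100 before log2, quantile normalization, median centring and a trended variance prior. No sequence was printed, and the standard error column was not used.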

Additional observations from a re-analysis of the deposited data

How the results depend on the processing

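Over the 8 alternatives run for it, the log2 difference of A20036 ran from 2.25 (100 added before log2) to 2.59 (without stressed replicate 1). It moved by less than the SD between pools, pooled over the groups (0.21). With 1 pool left out it could not have moved further, by arithmetic, so this does not show stability. The sign of the difference could not reverse with 1 pool left out either, since both stressed pools lay above both unstressed pools. The replicate block leaves the estimate unchanged by design, as each number occurs in both groups. A20036 was chosen for this difference, so these values only describe it. No other LysM transcript was called in those of the 10 alternatives that included it. The fit without the dimmest 25% did not include A119038, A119229, A61466 or A664998. Differences near 0 changed sign in some of them. With quantile normalization A1553675 was at 0.0098, A282399 at 0.012 and A51212 at −0.012. Leaving out 1 pool gave −0.30 to 0.21 for A112590, −0.19 to 0.17 for A1553675, −0.11 to 0.031 for A20908, −0.0014 to 0.12 for A24318, −0.32 to 0.31 for A282399, −0.43 to 0.089 for A326028, −0.19 to 0.0049 for A40828, −0.34 to 0.38 for A51212, −0.39 to 0.11 for A61466 and −0.18 to 0.0014 for A62762. Same-numbered pools deviated alike (r = 0.51 across transcripts), but with 2 pairs and no label this does not establish a pairing. With the replicate block 139 transcripts were called over the array, 23 in the 6 pathway lists and 3 receptor kinases (A147420, A166793 and A236858). Leaving out 1 pool gave 8 to 27 over the array and 2 to 6 in the pathway lists, with fewer samples in the fit. Adding 100 before log2 gave 5 in the pathway lists (1 MAP kinase and 4 WRKY transcripts) and 26 over the array; the cause was not tested.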
